A study of Mus musculus with 10 samples.

Results

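The BPI-fold genes of nasal secretions encode proteins that share the lipid-binding fold of bactericidal/permeability-increasing protein (BPI). The 8 genes described here, Bpifa1, Bpifb1, Bpifb3, Bpifb4, Bpifb5, Bpifb6, Bpifb9a and Bpifb9b, were chosen by name from the 24421 rows of the raw count table, and all 8 were found there and passed the filter on low counts. The study asked how a pair of enhancers controls the trace amine-associated receptor (TAAR) genes of olfactory neurons. RNA was sequenced from the main olfactory epithelium (MOE), a tissue lining part of the nasal cavity, of mice at postnatal day 14. The 10 libraries came from 3 mice labelled WT, 3 labelled het with 1 allele lacking TAAR enhancers 1 and 2, and 4 labelled homo with both alleles lacking them. The labels give the strain as C57BL/6, while the study's reporting form names mixed C57BL/6J and 129 backgrounds. All het and homo mice derive from a single double knockout line, made by CRISPR-Cas9 editing of enhancer 1 in zygotes of enhancer 2 knockout mice.

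BPI-fold proteins are made by glands and surface cells of the airway and mouth and are released into the mucus. Short members such as Bpifa1 (also called SPLUNC1) act as surfactants and antimicrobial factors of the upper airway, and long members such as Bpifb1 (LPLUNC1) are secreted by mucous cells. Bpifb3 and Bpifb4 are the mouse counterparts of the rat proteins RYA3 and RY2G5 of the olfactory mucosa, which have been proposed to bind odorants, and Bpifb9a and Bpifb9b are counterparts of rat vomeromodulin, a product of nasal glands.

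All 8 genes lie on the plus strand of chromosome 2 within 420.3 kb (chr2:153900388-154320646, mm10, GENCODE M21), and none overlaps another annotated gene. In chromosome order they form a first run of Bpifb6 (chr2:153900388-153912795), Bpifb3 (chr2:153918230-153932996) and Bpifb4 (chr2:153938212-153964101). Bpifa1 (chr2:154142880-154149219) follows between Bpifa3 and Bpifa5, family genes not among the 8, and lies nearer to Bpifb1 than to Bpifb4. The second run holds Bpifb1 (chr2:154190818-154220369), Bpifb5 (chr2:154223742-154240902), Bpifb9a (chr2:154257854-154271245) and Bpifb9b (chr2:154307227-154320646). The longest coding transcripts had between 9 exons, in Bpifa1, and 17 exons, in Bpifb6 and Bpifb4. Bpifb9a and Bpifb9b are near copies. Their longest coding transcripts, each with a coding length of 1773 bases, were identical at 2051 of 2065 aligned bases (99.3%).

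RefSeq (GRCm38.p6) holds promoter windows for all 8 genes, 10 windows in all. The 80 bases that end just before the earlier of the RefSeq and GENCODE starts are shown for the near copies and for 3 genes of differing spread. Whether levels or spread relate to these sequences was not tested. Capitals mark the letters TATAA.
Bpifb9a (chr2:154257774-154257853, plus strand): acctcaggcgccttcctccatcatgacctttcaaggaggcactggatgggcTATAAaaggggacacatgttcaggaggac
Bpifb9b (chr2:154307147-154307226, plus strand): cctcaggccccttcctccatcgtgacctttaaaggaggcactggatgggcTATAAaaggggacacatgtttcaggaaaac
Bpifb5 (chr2:154223662-154223741, plus strand): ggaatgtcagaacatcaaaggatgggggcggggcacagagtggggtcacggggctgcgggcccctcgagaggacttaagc
Bpifb6 (chr2:153900308-153900387, plus strand): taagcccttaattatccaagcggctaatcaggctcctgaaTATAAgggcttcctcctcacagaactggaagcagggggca
Bpifa1 (chr2:154142800-154142879, plus strand): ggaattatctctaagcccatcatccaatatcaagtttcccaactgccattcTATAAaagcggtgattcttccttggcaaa

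TATAA was the one motif searched, on both strands, in the last 60 bases before each RefSeq start, a length set after the windows had been seen. It stood on the gene's strand in 6 of the 10 windows of these genes and on the other strand in 0. Over all 32851 promoter windows the shares were 5.57% and 3.34%. Bpifb9a and Bpifb9b had the motif 29 and 30 bases before the end of the run shown, and the 250 bases before their RefSeq starts were identical at 230 of 242 aligned positions. The run of Bpifb5 had no match, which says only that these letters are not in that window. Among windows not shown, that of Bpifb4 also had no match. Bpifb3 and Bpifb1 each had a window with the motif and another without it.

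Depth was alike in the 10 libraries, with 21423861 to 27712948 counts in total. Markers of the labelled tissue were present in every library. Omp, the olfactory marker protein of mature neurons, had a mean of 4233 CPM (counts scaled to the same total in every library), and Cyp2a5, a supporting cell enzyme, had 6052 CPM. WT-1 stood apart through 7 genes that had at least 50 counts there and over 10 times the CPM of any other library, described below. The labels give no sex. Xist was abundant in 6 libraries and nearly absent from the other 4 (homo-2, homo-3, het-1 and WT-1), which had high counts of Y genes.

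The 8 genes together took 1.75% to 3.23% of all counts of a library. The mean share was 1.99% ± 0.330 in the 3 WT libraries, 2.32% ± 0.612 in the 3 het libraries and 2.38% ± 0.646 in the 4 homo libraries (SD). Bpifb9b was the most abundant gene of the whole table in each of the 10 libraries. In bulk tissue, fewer cells of a type and less RNA per cell cannot be told apart, and this holds for every level given here.

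Levels were compared between genes as CPM per kb of annotated exon. Bpifb9b stood first with 4748 ± 2002 (SD, n = 10), followed by Bpifa1 with 2504 ± 229 and Bpifb9a with 1076 ± 451. Bpifb3 had 1043 ± 201, Bpifb4 had 1011 ± 109 and Bpifb6 had 617 ± 65.6. Bpifb5 had 97.8 ± 54.7 and Bpifb1 closed the order with 7.76 ± 1.27. With this length Bpifb9a, Bpifb3 and Bpifb4 could not be ordered. Bpifb9a lay above Bpifb3 in 4 of 10 libraries and Bpifb3 above Bpifb4 in 6 of 10. On this length every other pair of neighbours in the order kept it in all 10 libraries, with ranges that did not overlap. The length covers all annotated exons of a gene, 1.545 kb over 3 transcripts for Bpifa1 and 3.127 kb over 5 transcripts for Bpifb4. Which transcripts were expressed was not tested. With a shorter transcript the order of Bpifa1 and Bpifb9b could change, and so could the place of Bpifb4 beside Bpifb3 and Bpifb9a. The order of Bpifb9b and Bpifb9a depends on how shared reads were assigned. Of the stretches of 50 bases in their transcripts 71.4% were common to both, and of the stretches of 100 bases 53.9% of those of Bpifb9a were found in Bpifb9b. No other pair of the 8 genes shared a stretch of 50 bases.

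**Figure D1:**
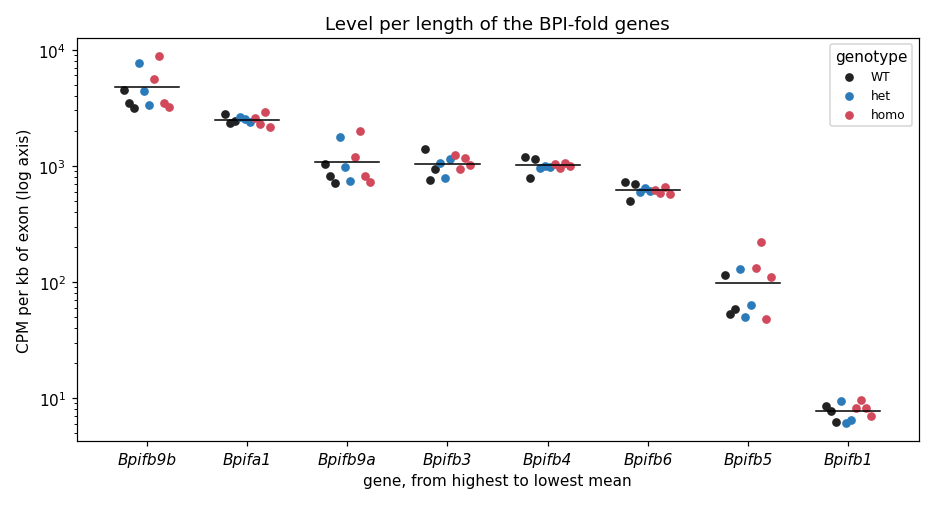
Level per length of the 8 BPI-fold genes, in CPM per kb of annotated exon on a log axis, with 1 point per library coloured by genotype and a line at the mean of all 10 libraries. On this length Bpifb9b lies above Bpifa1 in all 10 libraries, and Bpifb9a, Bpifb3 and Bpifb4 share 1 range.

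Among the putative odorant-binding members of the olfactory mucosa, Bpifb4 had 3736, 2476 and 3546 CPM in WT libraries 1 to 3, 3023, 3095 and 3080 CPM in het libraries, and 3256, 2980, 3294 and 3125 CPM in homo libraries 1 to 4. WT-1 was highest and WT-2 lowest of all, so that every het and homo value fell inside the WT range. Bpifb3 had 2605, 1416 and 1741 CPM in WT, 1996, 1459 and 2151 CPM in het, and 2324, 1745, 2185 and 1904 CPM in homo libraries. Here too WT-1 and WT-2 were the highest and the lowest of the 10. Bpifb6, a long BPI-fold protein whose gene neighbours both, had 1206, 823 and 1158 CPM in WT, 994, 1074 and 1003 CPM in het, and 1030, 970, 1090 and 950 CPM in homo libraries. Its extremes were again the WT-1 and WT-2 libraries. The highest library exceeded the lowest 1.51-fold for Bpifb4, 1.84-fold for Bpifb3 and 1.47-fold for Bpifb6.

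Bpifa1, the airway surfactant protein, varied least. It had 4311, 3624 and 3776 CPM in WT, 4063, 3875 and 3673 CPM in het, and 3988, 3569, 4485 and 3316 CPM in homo libraries, a 1.35-fold range whose ends both lay in homo mice. Bpifb1, the mucous cell product, was the least abundant with 30.8, 27.9 and 22.5 CPM in WT, 34.1, 22.2 and 23.4 CPM in het, and 29.5, 35.0, 29.6 and 25.4 CPM in homo libraries. The 3 genotypes overlapped for both genes.

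The vomeromodulin counterparts differed far more between libraries. Bpifb9b had 9239, 7222 and 6477 CPM in WT, 15878, 9032 and 6947 CPM in het, and 11483, 18170, 7130 and 6569 CPM in homo libraries. The homo-2 and het-1 libraries were highest, homo-1 came next, and the remaining het and homo libraries fell inside the WT range. Bpifb9a had 2336, 1858 and 1611 CPM in WT, 4002, 2223 and 1692 CPM in het, and 2731, 4514, 1845 and 1636 CPM in homo libraries. It kept a nearly fixed ratio to its copy, with Bpifb9b at 3.86 to 4.20 times the CPM of Bpifb9a (4.01 ± 0.101, SD, n = 10). The copies held 43.9% of the counts of the 8 genes in WT-3 and 70.1% in homo-2.

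Bpifb5, the next gene upstream of the copies, had the widest spread. It had 187, 86.5 and 96.7 CPM in WT, 210, 82.3 and 104 CPM in het, and 215, 361, 79.2 and 180 CPM in homo libraries, a 4.56-fold range. Its highest library was homo-2, and its lowest was homo-3, of the same genotype. Counting error was small beside this spread, with a coefficient of variation of at most 4.38% for the lowest count of any of the 8 genes, that of Bpifb1 in WT-3.

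**Figure D2:**
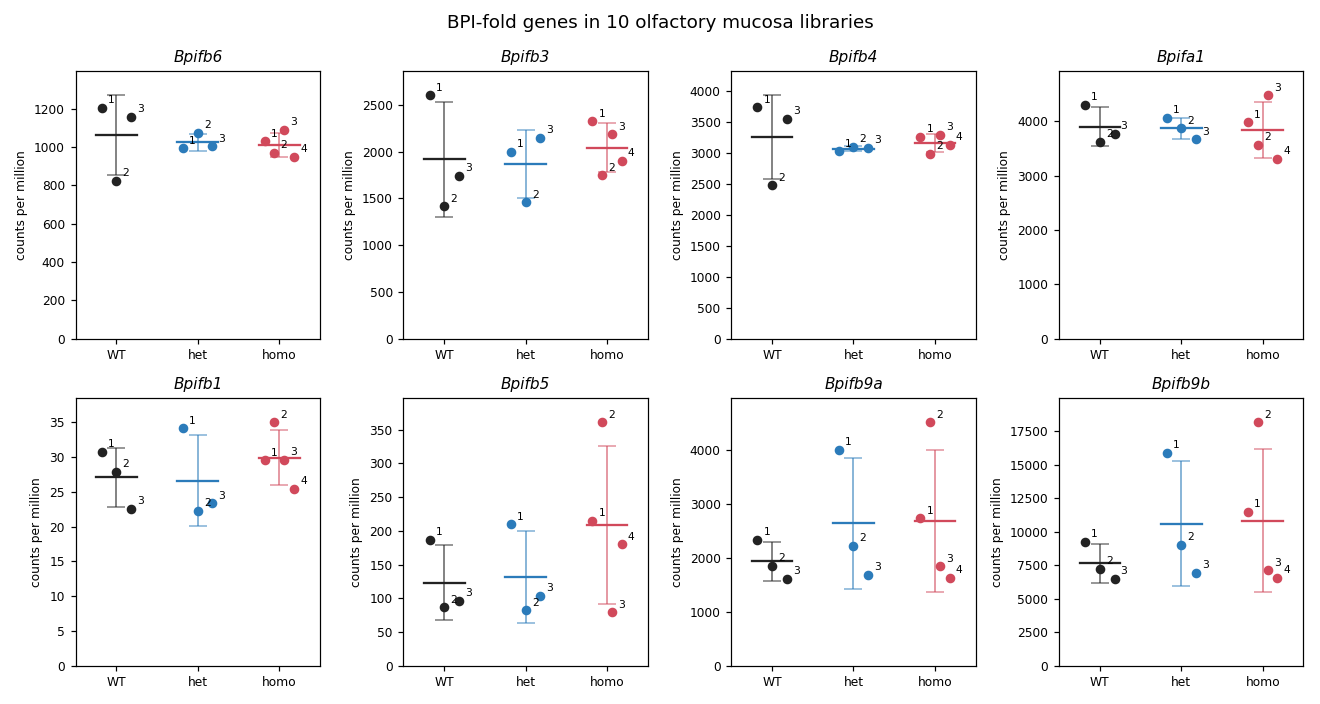
CPM of each of the 8 genes by genotype, with 1 point per library marked by its replicate number, and the mean and SD of each genotype as lines. Bpifb5, Bpifb9a and Bpifb9b spread widely within genotypes, up to 361, 4514 and 18170 CPM in homo-2, and the genotypes overlap in all 8 panels.

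The spread within genotypes was set beside that of all genes tested. The SD of log2 CPM around the genotype means was 0.78 for Bpifb5, at the 99.7th percentile of the 17197 genes, and 0.58 for both Bpifb9a and Bpifb9b, at the 99.2nd percentile. It was 0.31 for Bpifb3 (86.7th), 0.26 for Bpifb1 (77.1st), 0.18 for both Bpifb4 and Bpifb6 (53.0th) and 0.16 for Bpifa1 (44.0th). As fitted by edgeR, the biological coefficient of variation was 51.1% for Bpifb5 and 39.3% and 39.4% for Bpifb9a and Bpifb9b, against at most 18.8% for the other 5 genes.

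No BPI-fold gene passed the test between genotypes. In the edgeR quasi-likelihood test adjusted over all 17197 genes, 0 of 8 were called in homo against WT mice, a comparison in which 0.0698% of all genes were called. In het against WT mice 0 of 8 were called, beside 0% of all genes, and in homo against het mice 0 of 8, beside 0.0756%. Across the 3 genotypes 0 of 8 were called against 0.0698% of all genes. The smallest edgeR adjusted p of the 8 genes was 1 against WT and 0.999 between homo and het mice. At an unadjusted p under 0.05 the counts were 0 of 8 in each comparison, and DESeq2 and limma also called 0. The CPM ranges of the genotypes overlapped for all 8 genes in each comparison, while ranges stood apart for 3.55% of all genes when homo mice were set against WT, for 5.22% with het against WT, and for 3.93% with homo against het.

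The intervals differed widely in what they allow. Between homo and WT mice the difference for Bpifa1 was -0.02 on the log2 scale (SE 0.11), with a 95% interval from -0.26 to 0.22. Those for Bpifb4 and Bpifb6 were -0.03 (interval -0.29 to 0.22) and -0.07 (interval -0.32 to 0.18). As folds, the intervals ran from 0.837 to 1.17 for Bpifa1, from 0.820 to 1.16 for Bpifb4 and from 0.802 to 1.14 for Bpifb6. Bpifb3 differed by 0.09 (interval -0.32 to 0.51) and Bpifb1 by 0.15 (interval -0.19 to 0.48).

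Bpifb9b differed by 0.52 (SE 0.45, interval -0.53 to 1.56) and Bpifb9a by 0.48 (SE 0.44, interval -0.56 to 1.52). Bpifb5 had the largest estimate, 0.77 (SE 0.59), with an interval from -0.62 to 2.15 that spans a fold from 0.651 to 4.45. An increase by 2-fold lay inside all 3 intervals, so that it was not detectable at the spread of these libraries, and a decrease by 2-fold lay outside them. Single libraries set their estimates. Without homo-2 the difference of Bpifb9b fell to 0.13, that of Bpifb9a to 0.09 and that of Bpifb5 to 0.35. Without WT-1 that of Bpifb5 was 1.196, that of Bpifb9b 0.67 and that of Bpifb3 0.37. In het mice Bpifb9b differed from WT by 0.48 (interval -0.63 to 1.58), and by 0.06 without het-1. The remaining differences of het from WT mice lay between -0.09 and 0.45, and those of homo from het mice between -0.01 and 0.67. The comparisons against WT share the 3 WT libraries.

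**Figure D3:**
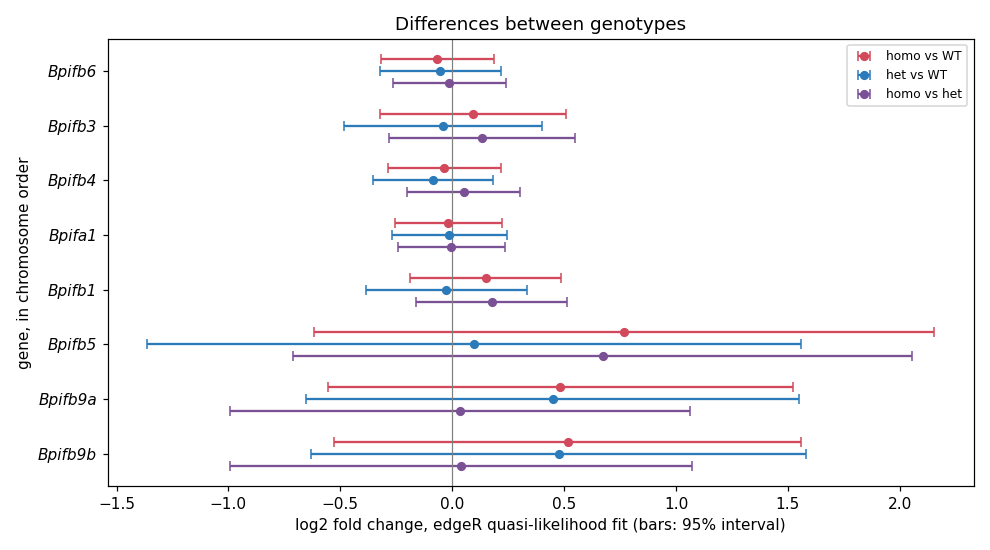
Differences of the 8 genes between genotypes as log2 fold changes from the edgeR fit, with 95% intervals, for each pair of genotypes. All 24 intervals include 0, and those of Bpifb5, which reach 2.15, are the widest.

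The 3 variable genes were also read against Xist. In the 4 libraries with nearly no Xist, Bpifb9b had 9239 (WT-1), 15878 (het-1), 18170 (homo-2) and 7130 CPM (homo-3). In the other 6 it had 6477 to 11483 CPM. The highest library of WT and of het mice, and the homo-2 library, thus had nearly no Xist, while homo-3, of the same class, lay near the bottom of the range. With this class as a term the homo-WT difference of Bpifb9b was 0.40. The part of this class in the spread was not tested.

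Covariation between libraries was measured over all 28 pairs of the 8 genes, on log2(CPM + 0.5) with TMM scaling. Pearson's r passed a permutation test at an adjusted p under 0.05 in 6 of 28 pairs, and Spearman's rho in 2. Each p below comes from 100000 resamples and was adjusted over the 28 pairs, for r and rho apart. These tests treat the 10 libraries as exchangeable, although same-numbered WT and het libraries deviated together. With these moved together, in exact permutations of the residuals from the genotype means added after the pairing had been seen, 0 of 28 pairs passed at an adjusted p under 0.05 and 5 had an unadjusted p under 0.05. The 144 orders allow no p below 0.00694. Bpifb9a with Bpifb9b had this p and an adjusted p of 0.0648 in these permutations, so that even almost exact covariation did not pass. The 0 therefore cannot show that a relation is absent. Within the run Bpifb1, Bpifb5, Bpifb9a and Bpifb9b r was 0.71 to 1.00 in all 6 pairs, of which 5 passed. These 5 calls are not independent, since the near copies share reads and a pair with either is nearly the same relation. Within the run Bpifb6, Bpifb3 and Bpifb4 it was 0.54 to 0.95 in 3 pairs, of which 1 passed. Between the runs r was -0.06 to 0.37 in 12 pairs, with a median of 0.01, and 0 passed. The median over the 28 pairs was 0.36.

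The near copies moved together almost exactly. Bpifb9a and Bpifb9b had r = 0.998 (permutation p = 1e-05, the smallest these resamples can give, adjusted p = 0.00028) and rho = 1.00 (adjusted p = 0.00028), and r was 0.993 without het-1 and homo-2, the 2 libraries farthest from the median of Bpifb9a. These values cover reads that the copies share, as given above.

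Bpifb4 and Bpifb6 came next. Their r was 0.95 (permutation p = 9e-05, adjusted p = 0.00126) and rho was 0.90 (permutation p = 0.0008, adjusted p = 0.0112). Without WT-1 and WT-2, which were highest and lowest for both, r was 0.84 and the pair no longer passed (exact permutation p = 0.0089 over 8 libraries, adjusted p = 0.0623). Leaving out single libraries gave 0.91 to 0.98, and the pair passed in all 10 of these. Bpifb3 followed them less closely. Its r with Bpifb4 was 0.68 (permutation p = 0.0262, adjusted p = 0.0917) and with Bpifb6 0.54 (permutation p = 0.102, adjusted p = 0.285), and both relations rest on WT-1 and WT-2, without which r was 0.12 and -0.16.

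Bpifb5 followed the copies. With Bpifb9b its r was 0.78 (permutation p = 0.00634, adjusted p = 0.0351) and rho was 0.61 (permutation p = 0.0656, adjusted p = 0.225). Without homo-2 and homo-3 r was 0.61 (exact permutation p = 0.104), and the pair no longer passed. Bpifb1 had r = 0.81 with Bpifb9a (permutation p = 0.0042, adjusted p = 0.0351) and rho = 0.76 (adjusted p = 0.0829), and r was 0.89 without WT-3 and het-2, where the pair no longer passed (exact permutation, adjusted p = 0.051). Its r with Bpifb9b was 0.78 (adjusted p = 0.0351), and with Bpifb5 0.71 (permutation p = 0.0254, adjusted p = 0.0917). Each of the 4 pairs of Bpifb1 or Bpifb5 with a copy lost its call when any 1 of 8 libraries was left out. Those of Bpifb1 kept it without het-2 or homo-3, and those of Bpifb5 without het-2 or homo-4. As the copies move together, these are not 4 separate relations. Bpifa1, which lies between the runs and nearer to that of Bpifb1, had r from 0.51 to 0.63 with Bpifb6, Bpifb3 and Bpifb4. With the 4 genes of the nearer run its r was -0.11 to 0.39, and 0 of its 7 pairs passed.

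**Figure D4:**
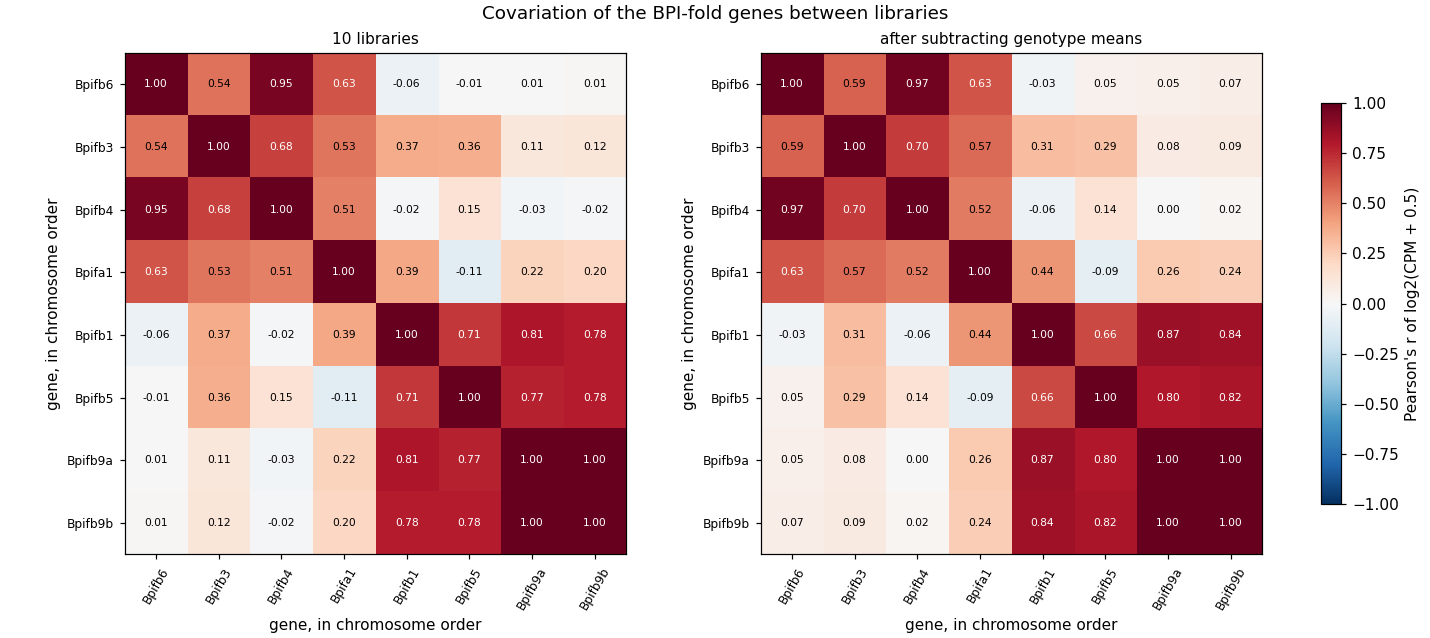
Pearson's r of log2(CPM + 0.5) between the 8 genes in chromosome order, over the 10 libraries at left and after subtracting the genotype means at right. Among Bpifb1, Bpifb5, Bpifb9a and Bpifb9b r over the 10 libraries is at least 0.71, Bpifb6 and Bpifb4 have r = 0.95, and r between these 4 genes and Bpifb6, Bpifb3 and Bpifb4 does not exceed 0.37.

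After the genotype means had been subtracted, 4 of the 6 pairs passed at an adjusted p under 0.05 in exact permutations within genotypes. They were Bpifb9a with Bpifb9b, Bpifb6 with Bpifb4 (r = 0.97) and Bpifb1 with Bpifb9a (r = 0.87) and Bpifb9b (r = 0.84). Bpifb5 with Bpifb9b had r = 0.82 (exact p = 0.022, adjusted p = 0.123) and with Bpifb9a r = 0.80 (adjusted p = 0.13), and neither passed. In the 6 libraries with abundant Xist, r was 0.93 for Bpifb4 and Bpifb6 (exact permutation p = 0.00833) and 0.996 for Bpifb9a and Bpifb9b (exact permutation p = 0.00139). In these it was 0.41 for Bpifb5 and Bpifb9b (exact permutation p = 0.461) and 0.55 for Bpifb1 and Bpifb9b (exact permutation p = 0.256). The 4 other libraries are too few for a correlation.

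The r values stand beside those of other genes of these libraries. Over all pairs of the 15743 genes with a mean of at least 1 CPM, the median r was -0.001, with 3.74% at 0.7 or above and 0.183% at 0.9 or above. Over 15134 pairs of neighbouring genes along the chromosomes the median was 0.16, with 7.33% at 0.7 or above and 0.588% at 0.9 or above. All these points share the same 10 libraries.

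**Figure D5:**
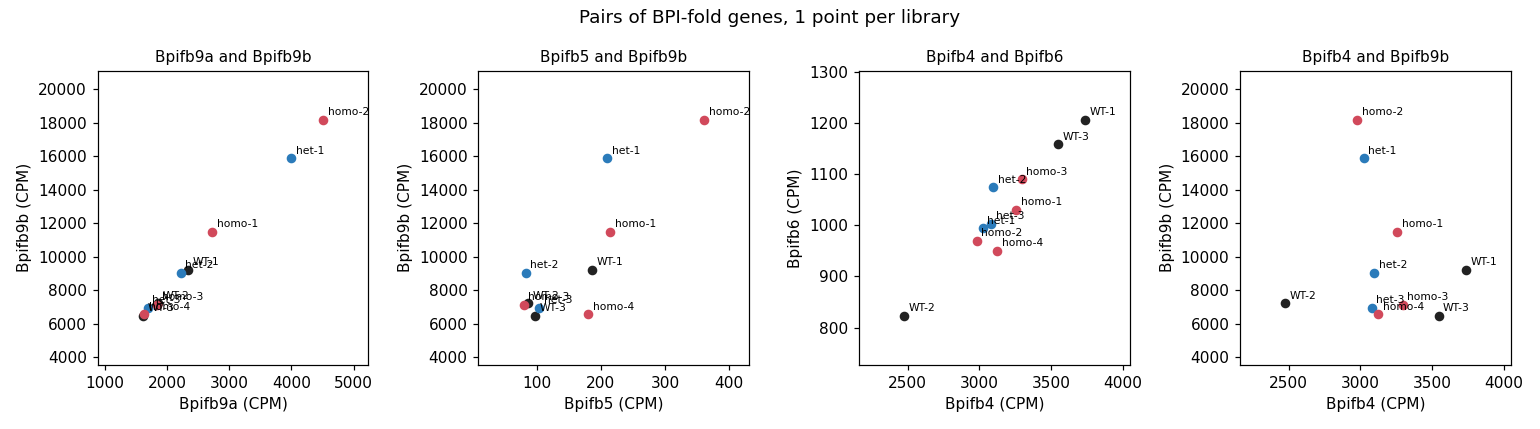
CPM of 4 pairs of the genes, with 1 labelled point per library coloured by genotype; axes do not start at 0. Bpifb9a and Bpifb9b lie on 1 line, Bpifb5 rises with Bpifb9b, Bpifb4 and Bpifb6 run from WT-2 at the bottom to WT-1 at the top, and Bpifb4 with Bpifb9b shows no order.

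The genes whose pattern was most like each member were taken as the 3 with the highest r over the 10 libraries, among genes with a mean of at least 1 CPM. For Bpifb9b these were Map3k6 (r = 0.96), Fbxo38 (0.94) and Gm973 (0.94), and for Bpifb9a Map3k6 (0.96), Fat4 (0.93) and Fbxo38 (0.93). For Bpifb5 they were Hdlbp (0.96), Atp2a3 (0.95) and Myo1e (0.95), and for Bpifb1 Igsf10 (0.93), Abtb2 (0.92) and Gdf10 (0.92). Bpifb4 was most like Slc22a20 (0.89), Ehd3 (0.89) and Sfrp1 (0.88), and Bpifb6 like Acad8 (0.91), Ocm (0.87) and Slc22a20 (0.87). Slc22a20, an organic anion transporter gene with 153 to 222 CPM, was the one gene named for both. Bpifb3 was most like Zfp574 (0.94), Calr (0.94) and Plvap (0.93), and Bpifa1 like Ggt1 (0.91), Creb3 (0.89) and Terf2ip (0.89).

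Around the genotype means, the 3 genes most like Bpifb9b were Vipr1 (r = 0.98), Cldn2 (0.97) and Map3k6 (0.96), and those most like Bpifb9a were Cldn2 (0.97), Vipr1 (0.97) and Fat4 (0.96). Vipr1, a receptor for vasoactive intestinal peptide, ran from 5.06 CPM in WT-3 to 14.3 CPM in homo-2, and Cldn2, a tight junction protein, from 6.71 CPM in het-3 to 13.1 CPM in homo-2. Bpifb5 was then most like Phlda1 (0.98), Arap1 (0.97) and Eps8l2 (0.97), and Bpifb1 like H6pd (0.94), Myb (0.94) and Rhoj (0.94). For Bpifb3 they were Gas6 (0.97), Calr (0.97) and Nucb1 (0.97). Calr encodes calreticulin, a chaperone of the endoplasmic reticulum, and was named on both scales. Bpifb4 was most like Pacsin2 (0.91), Lmod1 (0.91) and Sfrp1 (0.91), Bpifb6 like Slc22a2 (0.93), Acad8 (0.93) and Nsl1 (0.90), and Bpifa1 like Ppp1r1b (0.95), Derl1 (0.93) and Ddit4l (0.93). With 10 libraries and 15743 genes, high r values occur for many genes, and they are given as descriptions.

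Of 9 other BPI-fold family genes, all in the table, 4 passed the filter on low counts and 0 of these 4 were called in any comparison. Lbp, which binds lipopolysaccharide, had 20.5 to 27.2 CPM, and Pltp, the phospholipid transfer protein, had 28.6 to 44.7 CPM, and their homo-WT differences were 0.02 (SE 0.11) and -0.04 (SE 0.14). Bpifc had 3 to 14 counts a library. Bpi, the neutrophil protein that gave the fold its name, had 0 counts in 8 libraries, 1 in het-1 and 3 in homo-3, and Bpifa3, Bpifa5, Bpifa6 and Bpifb2, whose genes lie before or among the 8 on chromosome 2, had at most 10 counts in any library.

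Bpifa2, the parotid secretory protein, separated 1 library from all others. It had 34847 counts (1302 CPM) in WT-1 and 24 to 60 counts (1.06 to 2.54 CPM) in the other 9. Its homo-WT difference of -8.10 (SE 2.45) did not pass the test (edgeR adjusted p = 1, unadjusted p = 0.0126), and without WT-1 the WT libraries, with 1.52 and 1.08 CPM, lie inside the range of homo mice. The other 6 genes over 10-fold higher in WT-1 than in any other library, named after their values were seen, were Smr3a, Amy1, Prb1, Prpmp5, BC037156 and Cst10. Smr3a and Prb1 encode salivary proteins and Amy1 encodes salivary amylase. Amy1 had 8565 counts in WT-1 and 117 to 230 elsewhere, and Smr3a had 4207 against 6 to 36. The 8 genes did not share this pattern, although WT-1 was the highest library for Bpifb3, Bpifb4 and Bpifb6. The part of these transcripts in the levels of WT-1 was not tested.

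Marker lists of the cell types that a nasal sample holds were read beside these genes, with 0 genes called in any list and any comparison. The odorant-binding and lipocalin list, 8 genes led by Obp1a and Obp2a, which carry odorants in mucus, summed to 5603 to 11368 CPM in WT, 4347 to 10597 CPM in het and 7796 to 20957 CPM in homo libraries, with a median homo-WT difference of 1.02 against 0.00 over all genes. The nasal gland and mucus list, 14 genes led by Ltf (lactoferrin) and Muc5b (a gel-forming mucin), summed to 1692 to 1965 CPM in WT, 1555 to 2199 CPM in het and 2139 to 2985 CPM in homo libraries, highest in homo-2. Its median homo-WT difference was 0.14. The 7 respiratory secretory genes, led by Cyp2f2 and Scgb1c1, summed to 2552 to 3176 CPM over all libraries, the 7 supporting cell genes, led by Cyp2a5 and Cyp2g1, to 10846 to 13094 CPM, and the 6 motile cilia genes, led by Ccdc39 and Foxj1, to 458 to 557 CPM.

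Mature neuron genes, led by Omp and Gnal, summed to 8753 to 10532 CPM, with the lowest sum in homo-2, and immature neuron genes, led by Gap43 and Neurod1, to 375 to 512 CPM. The vomeronasal list, whose sum of 107 to 144 CPM was mostly Gnai2 followed by Vmn2r29, had 183 of 341 genes at 0 in all libraries. Blood and marrow genes, led by Ltf and Ptprc, summed to 257 to 983 CPM, highest in homo-2 and het-1. Both hemoglobin genes of the list were at 0 in every library, which does not show that blood was absent, since how they were counted is not known. Bone genes, led by Col1a1 and Ibsp, summed to 1821 to 4568 CPM. Ltf belongs to both the gland and the blood list and, with a mean of 501 CPM (223 to 954), made up most of the blood and marrow sum.

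Each of the 8 genes was correlated with the summed CPM of each of 10 lists, 80 relations chosen after the values had been seen, and 0 passed at an adjusted p under 0.05 for r or rho. The smallest adjusted p was 0.056, for Bpifb3 and the vomeronasal list (r = 0.85, permutation p = 0.0007, rho = 0.90, adjusted p = 0.0664, r = 0.83 without WT-1 and het-2). As the sum of that list was mostly Gnai2, this value cannot be read as a relation with vomeronasal neurons. Bpifb9b and the gland list had r = 0.69 (permutation p = 0.0271, adjusted p = 0.155) and rho = 0.61 (adjusted p = 0.314), and r was 0.36 without homo-1 and homo-2. After the genotype means had been subtracted this r was 0.96. Bpifb1 and the gland list had r = 0.78 (permutation p = 0.00777, adjusted p = 0.111), rho = 0.79 (adjusted p = 0.166) and r = 0.77 without those libraries. For Bpifb6, Bpifb3, Bpifb4 and Bpifa1 r with the gland list was -0.10 to 0.27. The blood and marrow list had r = 0.85 with Bpifb1 (permutation p = 0.00248, adjusted p = 0.0992, rho = 0.81, r = 0.76 without het-3 and homo-2), 0.79 with Bpifb5 (adjusted p = 0.111) and 0.72 with Bpifb9b (adjusted p = 0.14). That sum was mostly Ltf, which the gland list shares, so these values cannot be read as relations with blood or marrow cells. The respiratory secretory list had r = 0.78 with Bpifb6 (permutation p = 0.00753, adjusted p = 0.111, rho = 0.77) and 0.76 with Bpifb4 (adjusted p = 0.111, rho = 0.84), and r was 0.81 and 0.82 without WT-1 and homo-3. Over the 10 libraries, values of this size were not particular to secretory lists. At the same adjusted p, r was 0.76 for Bpifa1 and the supporting cell list and 0.74 for Bpifb3 and the bone list. These held less well, with r = 0.37 without homo-3 and homo-4 and r = 0.45 without WT-1 and het-2. For Bpifb5 and the gland list r was also 0.76, and 0.46 without homo-1 and homo-2. The part of a varying share of glands or other cells in the levels of the 8 genes was not tested.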

How the data were processed

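RNA-seq libraries of whole MOE were made by the authors with poly(A) bead selection and a directional kit. Per the labels and the methods, the authors trimmed reads with Trimmomatic 0.36, aligned them to mm10 (GRCm38) with HISAT2 2.1.0 and counted them with featureCounts (Subread 1.6.2). How the counter treated strand and reads that align to more than 1 place, and which annotation it used, are not given in the sources used here, so that counts of near copies are uncertain one by one. The deposited raw counts were used. The deposited normalized signal, each count divided by a DESeq2 1.20.0 size factor per library, served as an alternative only.

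Groups and replicate numbers came from the sample titles. Using edgeR 4.0.16 under R 4.3.3, genes were filtered with filterByExpr (minimum count 10, total 15), scaled by TMM and fitted with robust quasi-likelihood to all 10 libraries with genotype alone, and 17197 of 24421 genes were tested. P-values of two-sided tests were adjusted by Benjamini-Hochberg over all of these, with calls under 0.05. DESeq2 1.42.0 and limma 3.58.1 were alternatives. CPM was computed from plain library totals. Correlations used Python 3.11.15 with two-sided permutation tests (100000 resamples with 10 libraries, exact with fewer and within genotypes, 864 orders). Positions and lengths came from GENCODE M21, and promoters from RefSeq. The edgeR test of homo against WT mice was tried on simulated counts, and the correlation and sequence steps were not.

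The 8 members, the lists and the tests were chosen with earlier results of these data known. By rule the text names the 8 members, other family genes past the filter, the 2 most abundant genes of each list, and the 3 genes most like each member; others are said to be named after their values were seen or are given as counts.

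Libraries of the same genotype differed by more than counting noise, with a chi-square of 14.2 to 48.2 per degree of freedom. No source says that replicates came from separate litters, and p-values measure the spread between these samples. Intervals are 95%, and counting error does not cover PCR duplicates. Same-numbered WT and het libraries deviated together from their genotype means (r = 0.44, 0.45 and 0.36 over 15743 genes), by which their numbers pair them; the source is the data, not the labels. For homo libraries r was -0.19 to 0.23.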

Additional observations from a re-analysis of the deposited data

How the results depend on the processing

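The count of BPI-fold genes called was 0 in each comparison under every alternative run (RLE and upper-quartile factors, DESeq2, limma on the normalized signal, no filter, mean CPM of at least 1, a replicate block, an Xist class term, only the genotypes compared, and each library left out). Over 464 alternative values of the 24 differences the smallest adjusted p was 0.743. The sign turned in 40, for differences of at most 0.13 on the log2 scale. Outside the replicate block and the libraries left out, given next, these were the Bpifa1 homo-het difference with upper-quartile factors (0.0049), the Bpifb9a and Bpifb9b homo-het differences with the Xist term (-0.0266 and -0.015) and that of Bpifb9b with limma (-0.0036).

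With the replicate block, 0 of 8 genes were called in any comparison, and the Bpifb9b homo-WT difference was 0.64. The block turned the signs of Bpifa1 (homo-WT 0.0588, homo-het 0.0679) and Bpifb6 (homo-het 0.0207). In WT and het libraries alone, a block added after the pairing had been seen, 0 of 8 were called and Bpifb9b differed by 0.40. Over all genes, the block raised the counts called from 12 to 19 (homo-WT), from 13 to 24 (homo-het) and from 12 to 22 (3 genotypes), and in WT and het alone from 0 to 3.

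Leaving out each library gave these ranges where a sign turned. For homo-WT they were -0.101 to 0.0576 (Bpifa1), -0.0911 to 0.373 (Bpifb3), -0.202 to 0.0744 (Bpifb4) and -0.226 to 0.0319 (Bpifb6). For het-WT they were -0.0626 to 0.0676 (Bpifa1), -0.25 to 0.0819 (Bpifb1), -0.219 to 0.246 (Bpifb3), -0.248 to 0.0289 (Bpifb4), -0.412 to 0.53 (Bpifb5) and -0.207 to 0.0507 (Bpifb6). For Bpifb5 homo-WT, whose sign held, the range was 0.347 to 1.196. For homo-het they were -0.0879 to 0.0695 (Bpifa1), -0.011 to 0.238 (Bpifb3), -0.0521 to 0.0286 (Bpifb6), -0.355 to 0.464 (Bpifb9a) and -0.344 to 0.451 (Bpifb9b).

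The number of the 28 pairs that passed was 6 over the 10 libraries, 6 with plain library totals, 4 with residuals from the genotype means, 0 with numbered WT and het libraries also permuted together, 1 without the 2 libraries farthest from the median, and 2 to 6 with each library left out. It was 2 without any 1 of WT-1, WT-2, het-1, het-3, homo-1 and homo-2, namely Bpifb9a with Bpifb9b and Bpifb6 with Bpifb4. Without WT-3 it was 3, of which Bpifb3 with Bpifb4 was not among the 6, and without homo-3 it was 5, of which Bpifb1 with Bpifb5 was not. These fits have fewer libraries, and the cause of the lower counts was not tested. The permutations that moved numbered libraries together allow no p below 0.00694. There even Bpifb9a with Bpifb9b did not pass (adjusted p = 0.0648). Without the 2 farthest libraries r of Bpifb6 and Bpifb3 turned to -0.16. The ratio of the highest to the lowest library of Bpifb9b was 2.81 in CPM, 2.88 in the normalized signal and 2.90 without the 50 most abundant genes. None of the 8 genes had a homo library past the outlier limit for 4 samples, and the largest gap was 0.619 of the range for homo-2 in Bpifb9a.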
